A study of Mus musculus with 18 samples.

Results

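The lung response of C57BL/6 mice to inhaled ovalbumin was taken from 6 of 18 whole-lung microarrays, 3 of mice challenged with ovalbumin and 3 of mice challenged with PBS. The members are the arrays that the sample labels give this strain and either challenge, without resiquimod. All of these mice were males of the C57BL/6 strain aged 16 weeks, with no further substrain name, and each array is taken as 1 mouse, as the labels call the arrays of a group biological replicates. Both groups were sensitized in the same way, with 3 weekly injections of 100 µg ovalbumin in alum into the peritoneum. They were challenged from 7 days later, for 30 min on each of 3 days, with an aerosol of 1% ovalbumin or with PBS. The PBS lungs are therefore lungs of sensitized animals, not of naive ones. The other 12 arrays are used here to estimate the spread, to set values beside these and, for A/J, to compare the strains. They are of C57BL/6 mice injected with resiquimod and challenged with ovalbumin, and of A/J mice given the same 3 treatments. Resiquimod, a Toll-like receptor 7 agonist, was given at 100 µg, 24 h before challenge. These mice were also aged 16 weeks and sensitized in the same way.

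Inhaled allergen in a sensitized animal is known to set off type 2 inflammation. Helper T cells and innate lymphoid cells release the interleukins 4, 5 and 13. Interleukin 5 matures eosinophils, and interleukins 4 and 13 signal through the transcription factor STAT6 to turn airway secretory cells into goblet cells, to induce eotaxins that draw eosinophils, and to drive macrophages into the alternatively activated state. Values below are log2 RMA expression, in which 1 unit is a factor of 2, and changes are ovalbumin minus PBS ± SE with 3 arrays per group. A gene was called at a Benjamini-Hochberg adjusted p under 0.05 in limma, adjusted over 45037 probe sets. The 25th percentile of all values was 3.33, so levels near it are among the weakest signals and folds taken from them understate a change. In whole lung, more or fewer cells of a type and more or less RNA per cell cannot be told apart.

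In ovalbumin lungs many more genes rose than fell. Of 18193 genes, 290 were called (1.59%), 262 higher (1.44%) and 28 lower (0.154%), with a median change of 0.71 in the genes called higher and −0.51 in those called lower. Of these, 70 were at least 2-fold higher and 2 at least 2-fold lower. Over all 18193 genes, called or not, 9415 had a change above 0. The share of all genes at an unadjusted p under 0.05 was not counted. Counts of that kind in the lists below have no such share beside them. The ovalbumin and PBS arrays did not overlap in any of the 290 called genes, while they did not overlap in 17.8% of all genes. The calls come from these same arrays, so this is not separate evidence for them. The count of 478 called probe sets (1.06%), 394 higher (0.875%) and 84 lower (0.187%), rests partly on single arrays. It was 260 without ovalbumin array 2, 307 without ovalbumin array 3 and 298 without PBS array 1. Fitted on the 6 arrays alone it was 273.

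Ovalbumin array 1 and PBS arrays 1 and 3 stood apart, and they are described before the gene groups. Whole-lung samples can carry trachea, oesophagus or chest wall. Krt4, a keratin of stratified squamous epithelium, was at 12.32, 3.83 and 4.03 in ovalbumin lungs and at 11.97, 5.39 and 12.31 in PBS lungs. Acta1, the skeletal muscle actin, was at 12.04, 5.61 and 5.65 in ovalbumin lungs and at 11.58, 7.12 and 12.09 in PBS lungs. These 3 arrays were high in both genes, and the other 3 arrays were low. Averaged over 19 squamous genes the level was 7.31, 4.08 and 4.04 in ovalbumin lungs and 6.79, 4.29 and 7.34 in PBS lungs, and over 18 skeletal muscle genes it was 8.38, 4.62 and 4.49 in ovalbumin lungs and 7.93, 5.21 and 8.53 in PBS lungs. No gene of these lists was called by limma, nor any at an unadjusted p under 0.05, and their median changes were −0.85 for the squamous and −1.28 for the skeletal muscle list. All 16 cardiac muscle genes and all 14 lipogenesis genes lay lower in the ovalbumin mean without being called, with medians of −0.47 and −0.34 and with 2 and 1 genes at an unadjusted p under 0.05, and ovalbumin array 2 was lowest in both lists. With squamous content as a term in the fit 543 probe sets were called. Leaving out every array of the series that held squamous transcripts left 2 ovalbumin arrays against 1 PBS array. Skeletal muscle genes were not used in that choice. It kept A/J PBS array 3, with a squamous mean of 4.01 and a skeletal muscle mean of 7.56. Thymus and thyroid genes were near the weakest signals in all 6 arrays, between 3.88 and 4.01. Lung markers were high in every array, with the surfactant gene Sftpc between 13.80 and 13.86 and the club cell secretoglobin Scgb1a1 between 13.76 and 13.79.

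**Figure D1:**
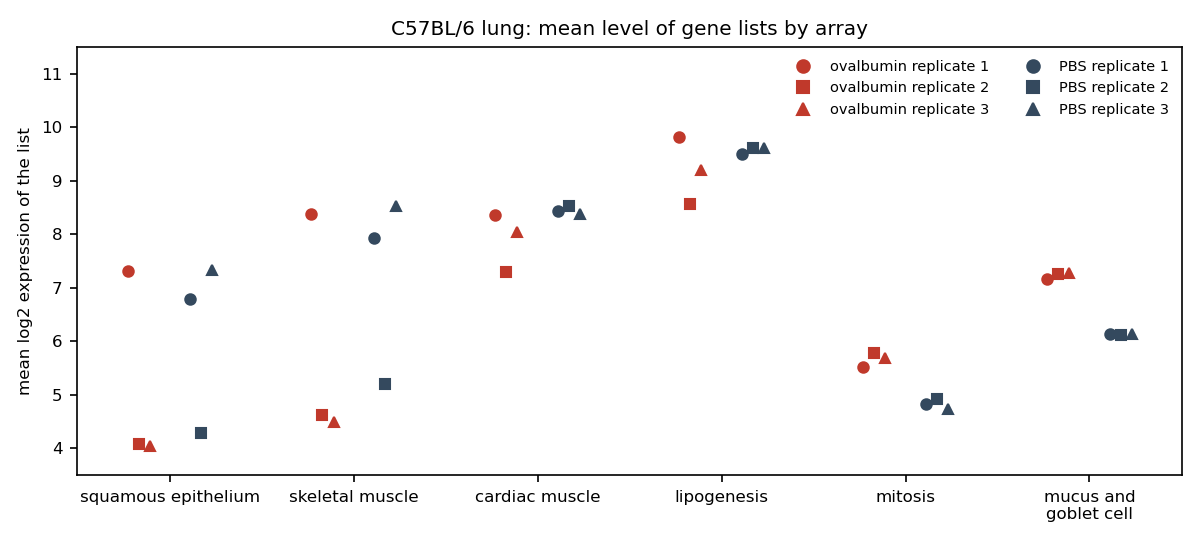
Mean log2 RMA level of the genes of 6 lists (horizontal axis) in each C57BL/6 array, ovalbumin left of PBS, with the symbol giving the replicate number. Ovalbumin 1, PBS 1 and PBS 3 are high in squamous epithelium and skeletal muscle genes, while the mitosis and mucus lists separate all 3 ovalbumin arrays from all 3 PBS arrays.

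The largest change of all was in a goblet cell gene. Clca1, a secreted goblet cell protein that processes mucins, was at 12.56, 12.62 and 12.68 in ovalbumin lungs and at 6.65, 6.22 and 6.59 in PBS lungs. The groups were far apart in this gene, by 70.4-fold (6.14 ± 0.48, limma adjusted p = 1.66e-06). Muc5ac, the gel-forming mucin that goblet cells add in allergic airways, was at 7.48, 7.75 and 7.58 in ovalbumin lungs and at 5.07, 4.62 and 4.45 in PBS lungs, a rise of 7.39-fold (2.89 ± 0.24, limma adjusted p = 3.16e-06). Muc5b, the mucin made constitutively by airway secretory cells, was at 9.71, 9.93 and 9.88 in ovalbumin lungs and at 8.47, 8.15 and 8.29 in PBS lungs. Every ovalbumin array lay above every PBS array, and it rose 2.90-fold (1.54 ± 0.18, limma adjusted p = 0.000106). Agr2, a disulfide isomerase needed to fold mucins, was at 6.77, 7.06 and 6.87 in ovalbumin lungs and near the weakest signals in PBS lungs, at 3.74, 3.54 and 3.56. Its change was 3.29 ± 0.29 (limma adjusted p = 5.07e-06).

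Of 24 mucus and goblet cell genes, 10 were called higher and none lower, with a median change of 0.55 against 0.00 over all genes. Besides these 4, the mucus-associated Fcgbp rose by 2.85 ± 0.17, the trefoil factor Tff2 by 2.34 ± 0.29 and Pigr, which carries IgA across epithelium, by 1.85 ± 0.14. Between 9 and 11 were called when any 1 array was left out, and 7 without the arrays holding squamous transcripts, with a median of 0.56. The 14 members not called included Spdef and Foxa3, transcription factors of goblet cell differentiation. Spdef was at 4.79, 4.75 and 5.15 in ovalbumin lungs and 4.38, 4.54 and 4.43 in PBS lungs (0.45 ± 0.12, limma adjusted p = 0.101), and Foxa3 changed by 0.44 ± 0.11 (adjusted p = 0.0775). In both, the ovalbumin arrays lay above all PBS arrays.

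Of 16 ion transport genes of airway epithelium 2 were called. Slc26a4, the anion exchanger pendrin, was at 8.22, 9.20 and 9.09 in ovalbumin lungs and at 4.66, 4.88 and 5.24 in PBS lungs (3.91 ± 0.21, limma adjusted p = 2.22e-08). The sodium-glucose cotransporter Slc5a1 rose by 1.40 ± 0.15. The other 14 were not called, and the median of the list was 0.05. Fer1l6, a ferlin family member outside the lists, was at 6.73, 6.92 and 6.60 in ovalbumin lungs and near the weakest signals in PBS lungs, at 3.32, 3.14 and 3.17, and rose 11.6-fold (3.54 ± 0.26). Scin, the actin-severing protein scinderin, rose 5.92-fold (2.56 ± 0.24).

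Of 15 club cell and detoxifying genes 2 were called, and 3 had a change above 0. Gsto1, a glutathione transferase, was called higher (0.70 ± 0.10). Cyp2f2, a club cell cytochrome P450, was called lower, at 12.76, 12.70 and 12.89 in ovalbumin lungs and 13.13, 13.15 and 13.09 in PBS lungs. That fall was −0.34 ± 0.07 (limma adjusted p = 0.0315), and it missed the threshold without ovalbumin array 1 or 2 or any 1 PBS array, with adjusted p up to 0.173. The lowest mean change in the list was that of the aldehyde dehydrogenase Aldh3a1, which was not called, at 9.02, 5.86 and 6.13 in ovalbumin lungs and 8.66, 7.25 and 9.16 in PBS lungs (−1.35 ± 0.87, adjusted p = 0.648). Its levels were highest in the 3 arrays that held squamous transcripts. None of 17 alveolar epithelial and 16 motile cilia genes was called by limma, with medians of −0.01 and 0.12 and with 3 and 2 genes at an unadjusted p under 0.05.

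**Figure D2:**
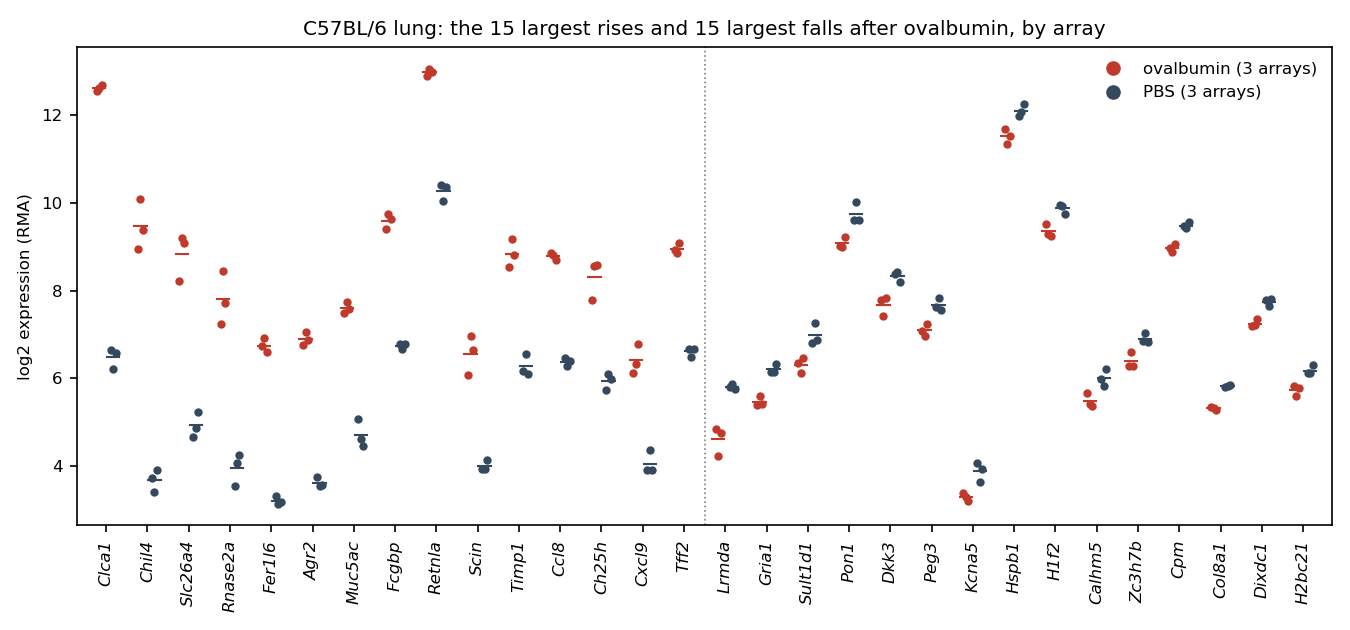
Log2 RMA level in each C57BL/6 array for the 15 genes with the largest rise (left of the dotted line) and the 15 with the largest fall (right of it), predicted genes and clone names left out, ovalbumin left of PBS, with lines at the means. Rises reach 6.14 for Clca1, while the falls shown reach −1.20 for Lrmda and −0.74 for Gria1.

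Chitinase-like and resistin-like proteins, secreted in type 2 inflammation by macrophages and airway epithelium, had 6 of 10 measured members called higher, with a median change of 0.57, or 4 without the arrays holding squamous transcripts. Chil4 was at 8.95, 10.09 and 9.38 in ovalbumin lungs and at 3.72, 3.40 and 3.91 in PBS lungs (5.79 ± 0.40, limma adjusted p = 5.37e-07). Retnla, also known as Fizz1, was between 12.91 and 13.06 in ovalbumin lungs and already strong in PBS lungs, at 10.41, 10.05 and 10.36. It rose 6.57-fold (2.72 ± 0.13, limma adjusted p = 7.09e-09). Chia1, the acidic mammalian chitinase, was at 10.66, 11.58 and 11.02 in ovalbumin lungs and 9.10, 8.39 and 9.16 in PBS lungs (2.21 ± 0.22). Chil3, known as Ym1, was at 12.28, 12.53 and 12.48 in ovalbumin lungs and 11.24, 11.41 and 11.30 in PBS lungs (1.11 ± 0.11). All 4 genes had every ovalbumin array above every PBS array. The hormone resistin, Retn, was not called, at 8.19, 6.49 and 7.60 in ovalbumin lungs and 8.56, 8.77 and 8.65 in PBS lungs (−1.24 ± 0.42, adjusted p = 0.246), with ovalbumin array 2 the lowest. Chil3 and Chil4 are close copies of each other, and a probe set annotated to both was at 12.23, 12.77 and 12.52 in ovalbumin lungs and at 10.59, 10.87 and 10.70 in PBS lungs, so how far each probe set tells them apart is uncertain.

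Of 23 genes of alternatively activated macrophages, 14 were called higher and none lower, with a median change of 0.98. Leaving out any 1 array left 11 to 14 called, and leaving out the arrays with squamous transcripts left 9, with a median of 1.09. Cd209e, a C-type lectin, was at 4.42, 5.50 and 4.91 in ovalbumin lungs and at 2.90, 2.98 and 2.78 in PBS lungs (2.06 ± 0.21, limma adjusted p = 2.93e-05). The macrophage mannose receptor Mrc1 was at 8.89, 9.17 and 9.04 in ovalbumin lungs and 8.23, 8.49 and 8.21 in PBS lungs (0.72 ± 0.12). Ch25h, the cholesterol 25-hydroxylase, rose by 2.37 ± 0.26. Arg1, the arginase that marks this state in mice, was at 7.46, 7.94 and 7.44 in ovalbumin lungs and 5.72, 5.08 and 6.10 in PBS lungs. Its groups did not overlap, but the change of 1.98 ± 0.74 was not called (limma adjusted p = 0.314). Gatm, an enzyme of creatine synthesis from arginine, rose by 1.74 ± 0.18 (limma adjusted p = 2.93e-05) and was 1 of 4 called among 17 arginine and polyamine genes, a count that was 1 without PBS array 1 and 2 without ovalbumin array 2.

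The promoters of these genes are shown because STAT6 prefers the palindrome TTCNNNNGAA, with a spacer of 4 bases, while other STAT proteins bind TTCNNNGAA, with 3. RefSeq gives a transcription start on GRCm38.p6 for 14452 of the 18193 genes, and both motifs, which read alike on the 2 strands, were searched in the 250 bases upstream. TTCNNNNGAA was present in 705 of all 14452 promoters (4.88%), in 20 of 203 of genes called higher (9.85%) and in 5 of 13 of called alternatively activated macrophage genes (38.5%), which are Retnla, Cd209e, Clec7a, Ccl17 and Pdcd1lg2. TTCNNNGAA was present in 911 of all promoters (6.3%), in 17 of 203 of genes called higher (8.37%) and in 3 of those 13 (23.1%), which are Chil3, Chil4 and Ccl17. Among all 17 genes of that list with a listed start, called or not, the same 5 (29.4%) and 3 (17.6%) matched. A match is a description of the letters and not a measured binding site. In the sequences, 5′ to 3′ on the strand of the gene, capitals mark TTCNNNNGAA in the first 3 and TTCNNNGAA in the last 2.
Retnla (chr16:48842359-48842608, plus strand): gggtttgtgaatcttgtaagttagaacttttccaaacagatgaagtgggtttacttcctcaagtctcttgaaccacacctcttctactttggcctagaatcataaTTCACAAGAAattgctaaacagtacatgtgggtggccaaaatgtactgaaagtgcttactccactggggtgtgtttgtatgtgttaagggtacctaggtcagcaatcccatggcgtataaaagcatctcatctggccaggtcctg
Cd209e (chr8:3854287-3854536, minus strand): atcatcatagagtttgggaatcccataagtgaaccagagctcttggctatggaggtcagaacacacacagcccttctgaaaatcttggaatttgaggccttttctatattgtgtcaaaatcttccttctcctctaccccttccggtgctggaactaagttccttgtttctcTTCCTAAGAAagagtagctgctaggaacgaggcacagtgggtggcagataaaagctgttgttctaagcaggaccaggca
Ccl17 (chr8:94810203-94810452, plus strand): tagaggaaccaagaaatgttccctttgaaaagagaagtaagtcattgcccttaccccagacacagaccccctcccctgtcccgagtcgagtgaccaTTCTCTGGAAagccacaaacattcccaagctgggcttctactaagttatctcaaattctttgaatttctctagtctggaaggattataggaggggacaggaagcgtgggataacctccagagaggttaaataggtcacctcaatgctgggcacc
Chil4 (chr3:106219480-106219729, minus strand): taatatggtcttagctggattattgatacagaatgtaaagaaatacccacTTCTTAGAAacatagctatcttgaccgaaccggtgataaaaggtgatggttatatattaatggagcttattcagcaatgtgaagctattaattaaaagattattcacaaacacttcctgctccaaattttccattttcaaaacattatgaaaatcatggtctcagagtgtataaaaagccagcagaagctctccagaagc
Chil3 (chr3:106167565-106167814, minus strand): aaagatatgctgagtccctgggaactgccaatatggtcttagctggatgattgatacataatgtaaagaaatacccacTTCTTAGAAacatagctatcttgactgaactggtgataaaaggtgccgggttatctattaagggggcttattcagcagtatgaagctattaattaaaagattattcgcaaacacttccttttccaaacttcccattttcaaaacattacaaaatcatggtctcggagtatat
The match begins 145 bases upstream of the start in Retnla, 79 in Cd209e, 154 in Ccl17, 200 in Chil4 and 172 in Chil3.

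Of 30 chemokines of the CC and CXC families 12 were called higher and none lower, 26 had a change above 0, and the median change was 0.42. The eotaxin Ccl11, which attracts eosinophils through the receptor Ccr3, was at 6.79, 7.59 and 7.08 in ovalbumin lungs and at 4.78, 4.79 and 4.89 in PBS lungs (2.33 ± 0.22, limma adjusted p = 1.26e-05). The second eotaxin, Ccl24, was at 6.32, 6.91 and 6.57 in ovalbumin lungs and 4.88, 4.44 and 4.82 in PBS lungs (1.89 ± 0.15, limma adjusted p = 2.41e-06). Ccl17, which attracts type 2 helper T cells through Ccr4, was at 8.14, 8.86 and 8.61 in ovalbumin lungs and 6.36, 6.66 and 6.34 in PBS lungs (2.08 ± 0.23). In these 3 genes ovalbumin array 2 was the highest and array 1 the lowest of the ovalbumin group, above every PBS array. Ccl8 rose by 2.41 ± 0.28 and the monocyte attractants Ccl7, Ccl12 and Ccl2 by 1.67, 1.70 and 1.16. The interferon-inducible Cxcl9 was at 6.13, 6.32 and 6.78 in ovalbumin lungs and 3.90, 4.36 and 3.91 in PBS lungs (2.35 ± 0.17). Of 25 type I interferon-stimulated genes the oligoadenylate synthetase Oas1a was called (0.75 ± 0.12). A change above 0 was found in 24 of them, against 9415 of all 18193 genes. At an unadjusted p under 0.05, 11 of the 25 were higher and none lower, but the share of all genes at that level was not counted. Between 11 and 13 chemokines were called when 1 array was left out, while without the arrays holding squamous transcripts 6 were called higher and 1, Cxcl14, lower. Cxcl14, a chemokine of epithelium, was at 7.34, 7.60 and 7.72 in ovalbumin lungs and 7.87, 8.79 and 7.76 in PBS lungs in the fit of all arrays, where its change was not called (−0.59 ± 0.20, adjusted p = 0.25).

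The type 2 cytokines Il4, Il5 and Il13 were near the weakest signals. Il13 was at 3.64, 3.91 and 3.83 in ovalbumin lungs and at 3.66, 3.70 and 3.37 in PBS lungs, and the groups overlapped (0.22 ± 0.11, limma adjusted p = 0.514). Il4 was at 3.07, 3.38 and 3.23 in ovalbumin lungs and 3.04, 2.77 and 2.98 in PBS lungs (0.30 ± 0.11, adjusted p = 0.319). Il5 changed by 0.21 ± 0.09 (adjusted p = 0.379). The ovalbumin arrays lay above the PBS arrays in Il4 and Il5, by less than the fit could call. Of 21 type 2 cytokines and receptors 1 was called, Csf2rb, the shared beta chain of the receptors for interleukins 3 and 5 and for GM-CSF (0.44 ± 0.10, limma adjusted p = 0.0424). It was not called without ovalbumin array 2 or 3 or any 1 PBS array, with adjusted p up to 0.212. Of 11 alarmins and inducers Il33, the epithelial alarmin that activates innate lymphoid cells, was called, at 9.76, 10.33 and 10.12 in ovalbumin lungs and 9.22, 8.94 and 9.57 in PBS lungs. Its rise was 0.83 ± 0.18 (adjusted p = 0.028) and was not called without ovalbumin array 2 or 3 or PBS array 1 or 2, with adjusted p up to 0.169. Its adjusted p was 0.0607 with a trended robust prior, 0.0634 on the 12 PBS and ovalbumin arrays and 0.132 on the 6 C57BL/6 arrays, and 0.007 without the arrays holding squamous transcripts.

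Leukocyte genes are given by cell type, eosinophils first. Rnase2a, an eosinophil-associated ribonuclease that macrophages also express, was at 7.25, 8.45 and 7.72 in ovalbumin lungs and at 3.56, 4.08 and 4.25 in PBS lungs (3.84 ± 0.38, limma adjusted p = 1.9e-05). It and Csf2rb were the 2 called of 11 eosinophil genes, of which 9 had a change above 0, with a median of 0.12. At an unadjusted p under 0.05, 5 were higher and 1 lower. The mean over the list was 4.95, 5.13 and 4.95 in ovalbumin lungs and 4.49, 4.48 and 4.49 in PBS lungs. The groups did not overlap in this mean, which includes Rnase2a, the largest change of the list at 3.84. The mean without Rnase2a was not computed. The granule genes Epx, the eosinophil peroxidase, and Prg2, the major basic protein, were not called. Epx was at 3.06, 3.18 and 3.03 in ovalbumin lungs and 2.98, 2.80 and 3.14 in PBS lungs, and Prg2 at 2.91, 3.70 and 3.34 in ovalbumin lungs and 3.25, 3.22 and 3.20 in PBS lungs, so both overlapped near the weakest signals. Of 25 macrophage and monocyte genes 7 were called higher, led by the elastase Mmp12 at 6.61, 7.52 and 7.34 in ovalbumin lungs and 5.29, 5.25 and 4.92 in PBS lungs (2.01 ± 0.29). The integrin Itgax rose by 0.69 ± 0.11 and the complement chain C1qc by 0.76 ± 0.13. That count of 7 was 3 without PBS array 1, PBS array 3 or ovalbumin array 3, 4 without ovalbumin array 2 and 2 without the arrays holding squamous transcripts. Batf3, a transcription factor of dendritic cells, was at 6.28, 6.69 and 6.45 in ovalbumin lungs and 5.22, 5.21 and 5.19 in PBS lungs (1.27 ± 0.11) and was 1 of 4 called among 19 dendritic cell genes, of which 2 were called without ovalbumin array 3.

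None of 16 T cell, 14 B cell, 13 plasma cell, 17 NK and cytotoxic cell or 15 mast cell and basophil genes was called by limma, with list medians between −0.15 and 0.17. At an unadjusted p under 0.05 there were 3 T cell, 1 plasma cell, 2 NK and cytotoxic cell and 1 mast cell and basophil genes, and no B cell gene. Irf4, a transcription factor of plasma cells and of type 2 dendritic cells, was at 6.18, 6.59 and 6.56 in ovalbumin lungs and 5.41, 5.36 and 5.38 in PBS lungs. This change of 1.06 ± 0.29 had an adjusted p of 0.113, and of 0.0249 with squamous content as a term. Of 15 neutrophil genes 1 was called, Lcn2, a siderophore-binding protein also made by epithelium, with a change of 0.70 ± 0.15 (adjusted p = 0.026). It was not called without ovalbumin array 2 or 3 or PBS array 1 or 3, with adjusted p up to 0.156. The antigen-processing thiol reductase Ifi30 rose by 0.58 ± 0.09 and was 1 of 2 called among 12 MHC class II presentation genes. The other was the protease Ctss, which was not called without ovalbumin array 2 or 3 or PBS array 1 or 3, with adjusted p up to 0.19. Without the arrays holding squamous transcripts the count was 0. Complement genes were called higher in 4 of 16 cases, among them the anaphylatoxin receptor C3ar1 (0.90 ± 0.14) and factor B, Cfb (0.87 ± 0.09), a count that was 0 without the arrays holding squamous transcripts.

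The remaining lists held few calls. Bhlhe40, a transcription factor of activated lymphocytes that also represses the circadian clock, was at 8.98, 9.14 and 9.07 in ovalbumin lungs and 8.58, 8.54 and 8.66 in PBS lungs (0.47 ± 0.08, limma adjusted p = 0.00523) and was the 1 called among 17 clock genes. Of 24 leukotriene and prostaglandin genes 2 were called, Cysltr1, a receptor for cysteinyl leukotrienes (0.56 ± 0.12), and Pla2g4a, which frees arachidonic acid (0.40 ± 0.08). Without 1 array both lost the call in some fits, without ovalbumin array 3, PBS array 1 or PBS array 3 in both genes and also without ovalbumin array 1 or PBS array 2 in Cysltr1, with adjusted p up to 0.0842 for Pla2g4a and 0.123 for Cysltr1. Of 24 secretory pathway and protein folding genes 1 was called, Sec61b, and 23 had a change above 0, against 9415 of all 18193 genes. At an unadjusted p under 0.05, 9 were higher, with no share of all genes counted beside them. The count of 1 called was 0 without ovalbumin array 2 or any 1 PBS array. Of 18 regulatory T cell and checkpoint genes 2 were called, Tnfrsf9 and Pdcd1lg2, and none without ovalbumin array 2 or PBS array 1. Of 15 glucocorticoid-responsive genes 1 was called, which is Lcn2. None of 7 red cell genes was called by limma, nor any at an unadjusted p under 0.05.

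**Figure D3:**
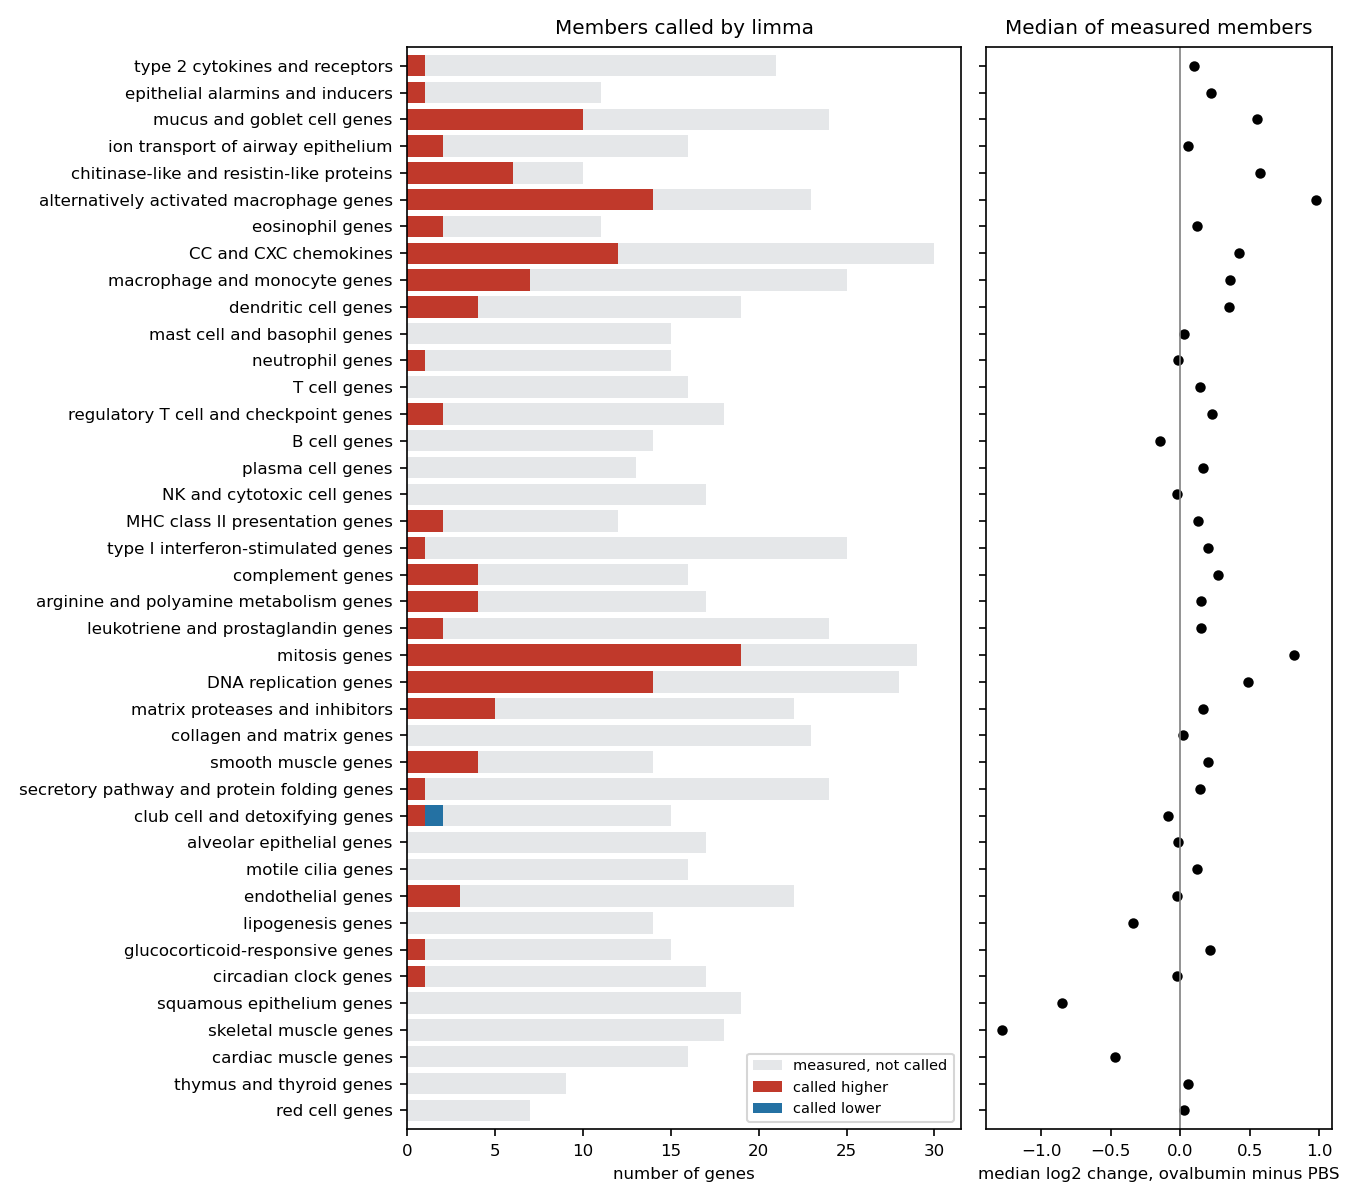
Left, number of measured genes in each list (bar length) with those called higher and lower in C57BL/6 ovalbumin lungs coloured. Right, median log2 change, ovalbumin minus PBS, of the measured genes of the list. Mitosis, replication, alternatively activated macrophage and chemokine genes hold the most calls, and the lowest medians belong to skeletal muscle and squamous lists without any call.

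Genes of dividing cells formed the group with the most calls. Of 29 mitosis genes 19 were called higher and none lower, with a median change of 0.82, and of 28 DNA replication genes 14 were called higher, with a median of 0.49. Top2a, the topoisomerase that untangles replicated chromosomes, was at 7.06, 7.30 and 7.27 in ovalbumin lungs and at 5.32, 5.66 and 5.41 in PBS lungs (1.75 ± 0.16, limma adjusted p = 1.03e-05). Mki67, the proliferation antigen Ki-67, was at 7.37, 7.60 and 7.56 in ovalbumin lungs and 5.97, 6.08 and 5.88 in PBS lungs (1.53 ± 0.13, adjusted p = 3.6e-06). Cdk1, the kinase that starts mitosis, was at 6.17, 6.40 and 6.17 in ovalbumin lungs and 4.73, 4.92 and 4.95 in PBS lungs (1.38 ± 0.12). The groups were apart in all 3 genes, and ovalbumin array 2 was the highest array in each. Rrm2, the regulated subunit of ribonucleotide reductase, rose by 1.70 ± 0.15, the thymidine kinase Tk1 by 1.19 ± 0.13 and the helicase subunit Mcm5 by 1.12 ± 0.12. The mitosis count was 10 without ovalbumin array 2 and between 13 and 17 without any other 1 array, and the replication count was between 11 and 16. Without the arrays holding squamous transcripts it was 9 and the replication count 4, with medians of 0.85 and 0.49.

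Promoters of mitotic genes often carry the cell cycle genes homology region, TTTGAA, close to the start, through which the DREAM complex represses them in resting cells. Searched on both strands in the 250 bases upstream, TTTGAA was present in 1726 of 14452 promoters (11.9%), in 42 of 203 of genes called higher (20.7%) and in 7 of 15 called mitosis genes with a listed start (46.7%). Among the called alternatively activated macrophage genes it was present in 6 of 13 (46.2%). Called or not, 8 of 24 mitosis genes (33.3%) and 6 of 17 alternatively activated macrophage genes (35.3%) with a listed start held it. Of the mitosis genes with a match in the last 60 bases, 4 are shown over the last 100 bases before the start, with capitals marking TTTGAA or its reverse complement TTCAAA.
Top2a (chr11:99024190-99024289, minus strand): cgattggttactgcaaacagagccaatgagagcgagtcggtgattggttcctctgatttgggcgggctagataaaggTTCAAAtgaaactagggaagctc
Cdk1 (chr10:69352913-69353012, minus strand): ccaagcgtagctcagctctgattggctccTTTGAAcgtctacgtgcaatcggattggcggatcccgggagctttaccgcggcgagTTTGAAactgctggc
Cdc20 (chr4:118437344-118437443, minus strand): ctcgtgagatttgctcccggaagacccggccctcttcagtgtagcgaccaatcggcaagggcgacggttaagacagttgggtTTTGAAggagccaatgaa
Ube2c (chr2:164769829-164769928, plus strand): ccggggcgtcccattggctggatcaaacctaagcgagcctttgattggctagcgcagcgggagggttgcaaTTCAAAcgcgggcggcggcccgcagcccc
The match nearest the start begins 23 bases upstream of it in Top2a, 15 in Cdk1, 18 in Cdc20 and 29 in Ube2c. In Top2a it overlaps a TTCNNNNGAA. Cdc20, which activates the anaphase-promoting complex, was at 7.39, 7.68 and 7.44 in ovalbumin lungs and 6.80, 6.67 and 6.45 in PBS lungs (0.86 ± 0.13). Ube2c, a ubiquitin-conjugating enzyme of that complex, was at 6.96, 7.25 and 7.15 in ovalbumin lungs and 5.54, 6.05 and 5.69 in PBS lungs (1.36 ± 0.19).

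Among tissue remodelling genes, proteases, their inhibitors and smooth muscle genes were called and collagens were not. Timp1, an inhibitor of matrix metalloproteinases, was at 8.54, 9.17 and 8.81 in ovalbumin lungs and at 6.16, 6.57 and 6.11 in PBS lungs (2.56 ± 0.15, limma adjusted p = 5.56e-08). It was 1 of 5 called among 22 matrix proteases and inhibitors, with Serpina3n (1.18 ± 0.12), Adam8 (0.88 ± 0.09), Mmp12 and Mmp13. None of 23 collagen and matrix genes was called by limma, with a median of 0.02 and 7 genes at an unadjusted p under 0.05. Of 14 smooth muscle genes 4 were called higher, a count that was 2 without ovalbumin array 2 or PBS array 2. Actg2, the enteric smooth muscle actin, was at 8.95, 9.15 and 8.99 in ovalbumin lungs and 8.38, 7.82 and 8.20 in PBS lungs (0.90 ± 0.13), and Acta2 rose by 0.53 ± 0.09. Tpm2, also counted there, had a mean over its probe sets that changed by −0.10. Of 22 endothelial genes 3 were called higher, with a list median of −0.02, and at an unadjusted p under 0.05 there were 4 higher and 4 lower. Selp, or P-selectin, which captures leukocytes, was at 6.56, 6.96 and 7.35 in ovalbumin lungs and 5.64, 5.44 and 5.52 in PBS lungs (1.42 ± 0.24, adjusted p = 0.00511), and the adhesion molecule Vcam1 rose by 0.77 ± 0.10. The other gene called was Sele, or E-selectin (0.85 ± 0.16), which was not called without ovalbumin array 3 or PBS array 1, with adjusted p up to 0.0695. Cdh5, the vascular cadherin, changed by −0.02.

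Falls were few and mostly small. Of the 2 genes at least 2-fold lower, Lrmda is described with the strain comparison and the other is a predicted gene. Gria1, an AMPA glutamate receptor subunit, was at 5.40, 5.60 and 5.41 in ovalbumin lungs and 6.15, 6.14 and 6.34 in PBS lungs, 40.1% lower (−0.74 ± 0.13, limma adjusted p = 0.00748). Dkk3, of the Dickkopf family, was at 7.79, 7.43 and 7.83 in ovalbumin lungs and 8.37, 8.42 and 8.20 in PBS lungs (−0.65 ± 0.11, adjusted p = 0.00326). Cpm, a carboxypeptidase of alveolar type I cells, was at 8.99, 8.88 and 9.06 in ovalbumin lungs and 9.47, 9.42 and 9.56 in PBS lungs (−0.51 ± 0.09). Every ovalbumin array lay below every PBS array in these 3 genes, and each stayed called when any 1 array was left out. Pon1, the paraoxonase, fell by 0.66 on the log2 scale, but was not called without ovalbumin array 1 or 2 or PBS array 2, with adjusted p up to 0.0854.

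The same challenge in A/J mice gave 582 genes called higher (3.2%) and 215 lower (1.18%). Its arrays are its own, but both strains share the same estimate of the spread, so the calls are not independent. Of the 262 genes called higher in C57BL/6, 217 were among those 582, and of the 28 called lower 17 were among those 215. The change had the same sign in A/J in 253 of the 262 and in 26 of the 28. The median change in A/J of the genes called higher in C57BL/6 was 0.76, and that of the genes called lower was −0.35. Clca1 rose by 6.14 in C57BL/6 and by 5.85 in A/J, Muc5ac by 2.89 and 2.81, and Top2a by 1.75 and 2.11.

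The difference between the strains in the ovalbumin change, tested as an interaction, was called in 21 probe sets (0.0466%) and 11 genes (0.0605%). Itln1, the lectin intelectin secreted by goblet cells, was at 4.55, 4.36 and 4.84 in C57BL/6 ovalbumin lungs and 3.80, 3.80 and 3.83 in C57BL/6 PBS lungs. In A/J it was at 9.65, 9.29 and 9.52 in ovalbumin lungs and 5.68, 6.01 and 5.49 in PBS lungs. The C57BL/6 groups did not overlap, but the change of 0.77 ± 0.20 was not called (adjusted p = 0.0968) and fell short of the A/J change of 3.76 by 2.98 (limma adjusted p = 0.000133). Guca2a, the intestinal peptide guanylin, was between 3.91 and 4.17 in C57BL/6 ovalbumin lungs and between 3.98 and 4.44 in C57BL/6 PBS lungs and rose by 1.76 in A/J (adjusted p of the difference 0.000583). Chil3 rose by 1.11 in C57BL/6 and by 2.29 in A/J (adjusted p of the difference 0.00392). Its ovalbumin means were 12.43 in C57BL/6 and 12.33 in A/J, while its PBS means were 11.32 in C57BL/6 and 10.04 in A/J. Capn9, a calpain of digestive epithelium, rose by 1.28 in C57BL/6 and by 2.57 in A/J (adjusted p of the difference 0.0422). Strain differences in probe sequence were not tested.

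**Figure D4:**
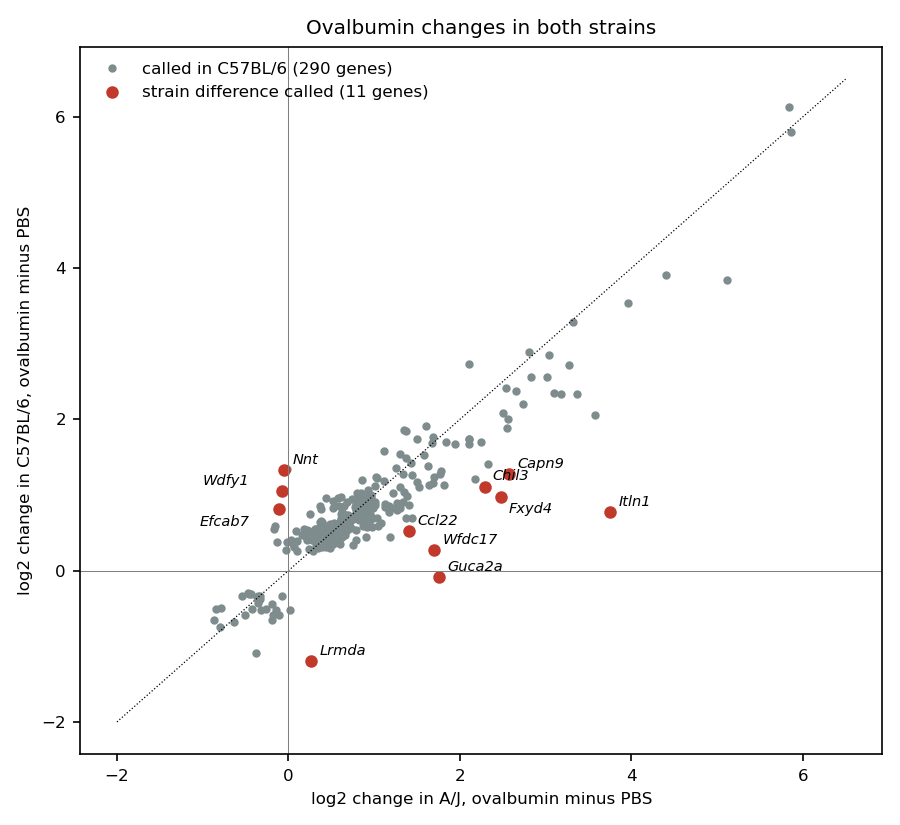
Log2 change, ovalbumin minus PBS, in C57BL/6 (vertical axis) against A/J (horizontal axis) for the 290 genes called in C57BL/6 (grey) and the 11 genes whose change differs between the strains (red, named), with the line of equal change dotted. Nnt, Wdfy1, Efcab7 and Lrmda lie near 0 in A/J, and the other 7 named genes rose more in A/J.

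Of the 11 genes, 4 were called in C57BL/6 and had A/J changes between −0.11 and 0.27 that were not called. Nnt encodes the mitochondrial nicotinamide nucleotide transhydrogenase, and the substrain C57BL/6J is known to carry a deletion within it that other C57BL/6 substrains lack. Nnt was at 8.45, 8.35 and 8.40 in ovalbumin lungs, at 8.35, 8.41 and 8.27 in resiquimod lungs and at 7.04, 7.27 and 6.90 in PBS lungs. The 3 PBS arrays were the lowest of all 18 arrays in this gene, and the A/J means were 8.42 in ovalbumin, 8.22 in resiquimod and 8.46 in PBS lungs. The C57BL/6 change was 1.33 ± 0.09 (limma adjusted p = 5.37e-07), the A/J change −0.05, and the difference between them had an adjusted p of 0.000133. A second Nnt probe set changed by 1.47 and another, near the weakest signals, by 0.06.

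Wdfy1, an endosomal protein reported to differ in expression between C57BL/6 substrains, had the same pattern. It was at 7.32, 7.47 and 7.30 in ovalbumin lungs, 7.50, 7.43 and 7.43 in resiquimod lungs and 6.33, 6.12 and 6.47 in PBS lungs (1.06 ± 0.09, limma adjusted p = 3.6e-06), with an A/J change of −0.07. Of its 5 probe sets, 3 were called higher, by 1.06, 1.76 and 2.13, and 2 were not called, with changes of 0.14 and −0.01. Efcab7, an EF-hand protein, was at 5.10, 5.23 and 5.24 in ovalbumin lungs, 5.17, 5.10 and 4.98 in resiquimod lungs and 4.26, 4.56 and 4.32 in PBS lungs (0.81 ± 0.09, adjusted p = 7.64e-05). Lrmda, a gene needed for melanocyte differentiation in humans, ran the other way, at 4.84, 4.23 and 4.77 in ovalbumin lungs, 4.56, 4.71 and 4.22 in resiquimod lungs and 5.80, 5.87 and 5.76 in PBS lungs (−1.20 ± 0.16, adjusted p = 0.000435). Its PBS arrays lay near the A/J PBS mean of 5.89, and the other C57BL/6 arrays lay below. A second Lrmda probe set was also called lower, with a change of −1.28. Another, near the weakest signals, changed by −0.07 and was not called. Over all 45037 probe sets, the 3 C57BL/6 PBS arrays all lay below the other 15 arrays in 358 and above them in 410. In these 4 genes the resiquimod arrays lay with the ovalbumin arrays, not with the PBS arrays. The genes lie on chromosomes 13, 1, 4 and 14. Of 5 genes listed as differing between substrains, the other 3, Crb1, Cyfip2 and Nlrp12, were not called, with changes of 0.05, 0.01 and 0.10. Whether substrains differ in the RNA level of these 3 genes was not tested, so their values cannot decide the origin of the mice. The labels name no substrain, so a response to ovalbumin and a difference in origin between the mice of the 2 groups cannot be told apart in these genes, and the same holds for any other gene of the comparison that such a difference would touch.

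**Figure D5:**
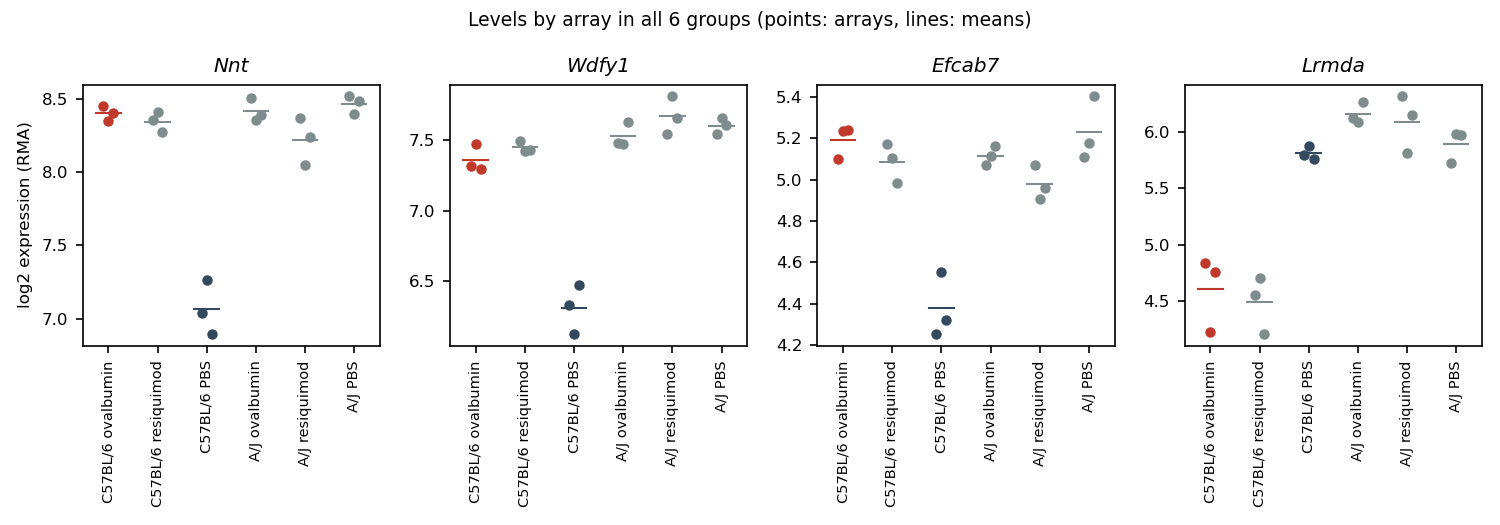
Log2 RMA level of 4 genes in each array of the 6 groups (points are arrays, lines are group means), C57BL/6 ovalbumin red, C57BL/6 PBS dark and the others grey. In Nnt, Wdfy1 and Efcab7 the 3 C57BL/6 PBS arrays lie below the other 15 arrays, as in 358 of all 45037 probe sets. In Lrmda the C57BL/6 PBS arrays lie with A/J.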

How the data were processed

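The deposited values are log2 expression from Affymetrix Mouse 430 2.0 arrays, made by the authors with RMA in the affy package (version not given), per the submitters' processing notes. RMA corrects background, sets all arrays to 1 distribution and summarises probes, so differences in total signal are removed. Array medians were between 4.77 and 4.80. From these log2 values limma 3.58.1 (R 4.3.3) estimated 6 group means over 18 arrays for 45037 probe sets, unfiltered, with eBayes moderation. P-values were two-sided and Benjamini-Hochberg adjusted. They measure only the spread between arrays, and 3 per group limit the precision. A gene is its probe set of highest mean among those naming it alone, in GEO's platform annotation. The pipeline was tested on simulated data.

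Members and 42 gene lists were chosen with earlier results of these data known. Of 746 listed genes 681 were measured. Named are the 15 largest called rises and falls whose groups do not overlap (no predicted genes or clone names), up to 6 called genes per list (else up to 2), 10 strain-difference genes, and Il4, Il5, Il13, Il33, Ccl11, Ccl24, Clca1, Muc5ac, Muc5b, Chil3, Chil4, Retnla, Nnt, Wdfy1 and Lrmda, of which the text gives a part. Arg1, Mrc1, Spdef, Foxa3, Epx, Prg2, Retn, Aldh3a1, Cxcl14, Ccl2, Ccl7, Cdc20, Cdh5, Crb1, Cyfip2, Nlrp12 and the other tissue markers were added after their values were seen. Alternatives left out arrays, changed the prior, normalization, weights, filter, array set or probe-set rule, or added the replicate number. A term for squamous content was added after seeing the data.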

Additional observations from a re-analysis of the deposited data

Results flagged for a closer look

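In 11 genes the ovalbumin change differed between the strains by limma's interaction test. The differences below are the C57BL/6 change minus the A/J change, on the log2 scale. It was −2.98 for Itln1, −1.84 for Guca2a, −1.50 for the ion transport regulator Fxyd4, −1.46 for Lrmda, −1.43 for the secreted protein gene Wfdc17 and 1.38 for Nnt. For Capn9 it was −1.29, for Chil3 −1.18, for Wdfy1 1.13, for Efcab7 0.93 and for the chemokine Ccl22 −0.87. Wfdc17 was at 8.01, 7.85 and 7.82 in C57BL/6 ovalbumin lungs and 7.61, 7.50 and 7.74 in C57BL/6 PBS lungs, and its A/J change was 1.70. Fxyd4 rose by 0.98 ± 0.18 in C57BL/6 and by 2.48 in A/J, and its C57BL/6 rise was not called without ovalbumin array 2 or 3, with adjusted p up to 0.0558. Ccl22 rose by 0.53 ± 0.10 in C57BL/6 and by 1.40 in A/J, and its C57BL/6 rise was not called without ovalbumin array 2 or 3 or PBS array 3, with adjusted p up to 0.107.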

How the results depend on the processing

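Against 478 called probe sets, fitting only the 6 C57BL/6 arrays gave 273, leaving out the arrays with squamous transcripts 141, requiring a 2-fold change 107, and leaving out 1 array 260 to 507. The strain difference, 21 probe sets, gave 36 with a trended robust prior, 3 without the squamous arrays and 16 to 23 without 1 array. The A/J comparison, 1419 probe sets, gave 120 without the squamous arrays, 168 at 2-fold or more and 680 to 1492 without 1 array. Leaving out the squamous arrays leaves a lone C57BL/6 PBS array, assumed to vary like the others. These 3 counts stayed within 1.5 times under the other settings. Counts within lists that held 1 or 2 calls moved more often, such as alarmins to 0 with a trended robust prior or on 12 arrays, type 2 cytokines to 0 and eosinophil genes to 1 with the mean of probe sets, and secretory pathway genes to 5 on 12 arrays. Of 98 named genes called, 73 to 88 kept the call without 1 C57BL/6 array, 47 without the squamous arrays, 64 on the 6 arrays and 95 with the squamous term. Among genes not called, Ighm and Adipoq reversed without ovalbumin array 2, with changes from −0.65 to 0.21 and from −1.58 to 0.13 over the fits without 1 array, and Guca2a without PBS array 2 (−0.16 to 0.071). Igha and Klf1 reversed without the squamous arrays (−0.30 and −0.033). Tpm2 reversed as the mean of its probe sets (−0.10). The cause was not tested. Whether replicate numbers pair the arrays cannot be told from the deviations from group means. Those of same-numbered arrays correlated at 0.28, 0.32 and −0.35. Correlations were positive between ovalbumin and PBS arrays alike in squamous content and negative between the others. With the replicate block 444 probe sets were called, 18 for the strain difference. Signals near 3.33 limit what can be seen of falls and of the cytokines.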

Other observations

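Outside the genes above, 4 probe sets with several gene names or none had C57BL/6 PBS levels above the ovalbumin, resiquimod and A/J levels and were called for the strain difference, out of 410 probe sets whose 3 C57BL/6 PBS arrays lay above the other 15. The one with the largest difference was at 4.84, 4.92 and 4.98 in C57BL/6 ovalbumin lungs and at 6.87, 7.13 and 6.61 in C57BL/6 PBS lungs (log2 change −1.96), against an A/J change of −0.10 (limma adjusted p of the strain difference 0.000583). A probe set of Nrp1, a co-receptor for semaphorins and VEGF that was picked after its values were seen, moved in opposite directions in the strains. It was at 9.46, 9.18 and 9.31 in C57BL/6 ovalbumin lungs and at 9.00, 8.94 and 9.01 in C57BL/6 PBS lungs, a change of 0.33 ± 0.07 (limma adjusted p = 0.0299), and changed by −0.36 in A/J (adjusted p = 0.01). The difference between the strains had an adjusted p of 0.011, and the C57BL/6 call was lost without ovalbumin array 1 or 3 or any 1 PBS array, with adjusted p up to 0.118. This probe set is not the one taken for the gene, and no other Nrp1 probe set was called for the strain difference.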
